A study of Mus musculus with 9 samples.

Results

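The genes described here are 6 subunits of the NADPH oxidases in mouse renal cortex: Nox4, Cybb, Cyba, Ncf1, Ncf4 and Rac2. They were chosen by gene symbol and are 6 of the 21950 genes in the mRNA tables. All 6 passed the filter on low values, a mean of at least 0.1 FPKM over the 9 libraries, as did 14537 genes in all. FPKM is the number of fragments scaled to transcript length and to the mapped fragments of the library, summed here over the transcripts of a gene.

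NADPH oxidases are membrane enzymes that carry electrons from NADPH across a membrane to oxygen and so make superoxide or hydrogen peroxide. The phagocyte enzyme has Cybb as its catalytic subunit and is silent until cytosolic subunits and a Rac GTPase join it at the membrane, which is how macrophages and neutrophils make their oxidative burst. The enzyme built on Nox4 needs no cytosolic subunit, is abundant in kidney tubule cells, and releases mainly hydrogen peroxide. Both catalytic subunits sit in the membrane together with Cyba.

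RNA from the renal cortex of male mice was sequenced, 1 library per mouse and 3 mice per group. The control group were db/m littermates, heterozygous for the leptin receptor mutation (db) and given vehicle. The dbdb group were db/db mice (BKS.Cg-Dock7m+/+Leprdb/Nju), homozygous for that mutation, obese and diabetic, and given the same vehicle. The dbR group were db/db mice given rosiglitazone, an insulin sensitizer that activates PPARγ, at 20 mg/kg per day. The db/db mice were dosed by gavage over 8 weeks, from 7 to 15 weeks of age, so they and their littermates were 15 weeks old. The comparison of dbdb with control addresses diabetes against its lean littermates, dbR with dbdb addresses the drug within diabetic mice, and dbR with control sets the treated diabetic mice beside the lean ones. The 3 comparisons share libraries and are not independent of each other. Depth, estimated from the steps between the lowest values, was about 24800000 to 30700000 fragments per library. At this depth Nox4 rested on about 21801 to 43362 fragments per library, Cyba on 6460 to 8086, Cybb on 133 to 384, Rac2 on 26 to 107, Ncf1 on 37 to 69 and Ncf4 on 8 to 30. The libraries carried the markers of the labelled tissue: the proximal tubule marker Ass1 averaged 1913.3 FPKM and the distal marker Umod 273.0 FPKM.

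The library dbdb 3 stood apart from dbdb 1 and dbdb 2 in the summed level of genes of myeloid cells, the cells that hold the phagocyte oxidase. Not every gene of that sum set it apart, and Csf1r and Tyrobp were about as high in dbdb 2. Cd68 was lowest of its group in dbdb 3, at 0.819 FPKM. Cd14 and the Itgam entry that passed the filter were higher in dbdb 1 (2.25 and 0.38 FPKM) than in dbdb 3 (1.96 and 0.277 FPKM). The summed level of 23 macrophage and myeloid marker genes was 140.6, 120.8 and 126.5 FPKM in control 1, 2 and 3. It was 56.2 and 70.5 FPKM in dbdb 1 and 2 but 103.6 FPKM in dbdb 3, and 82.0, 102.7 and 105.9 FPKM in dbR 1, 2 and 3. Results for the phagocyte subunits are therefore given with and without dbdb 3. That library was picked from these same data. It was also the highest dbdb library for Cybb, Ncf1, Ncf4 and Rac2, so leaving it out had to lower their dbdb means. Fits without it are thus no separate support for a lower level in dbdb or a higher level in dbR. Every other library was left out in turn as well. The cortex is a mixture of cells, so fewer cells of a type and less RNA per cell cannot be told apart in these values.

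The 6 genes fell into 2 ranges of abundance. Cyba averaged 352.0 FPKM over the 9 libraries and Nox4 307.7 FPKM, followed by Cybb at 2.50, Ncf1 at 0.688, Rac2 at 0.687 and Ncf4 at 0.517 FPKM. Cybb, Ncf1, Ncf4 and Rac2 together made up 0.332% to 0.966% of the summed FPKM of the 6 genes. Among all genes tested, Nox4 stood between the 97.1 and 98.8 percentile of level in every library and Cybb between the 21.6 and 35.2 percentile. In control and dbdb the order of mean levels began with Cyba, then Nox4, then Cybb, whereas in dbR Nox4 came before Cyba. Nox4 was below Cyba in each control and each dbdb library and above it in each dbR library. The ratio of Nox4 to Cyba FPKM was 0.653, 0.770 and 0.537 in control 1, 2 and 3, then 0.922, 0.876 and 0.855 in dbdb 1, 2 and 3, and 1.02, 1.23 and 1.07 in dbR 1, 2 and 3. At the low end, Rac2, Ncf1 and Ncf4 were neighbours in control at 1.02 ± 0.243, 0.782 ± 0.187 and 0.740 ± 0.0541 FPKM (SD, n = 3), which did not differ beyond their spread. In dbdb and dbR the order of these genes was Ncf1, Rac2, Ncf4, again with neighbours closer than the sum of their SDs. Nox4 and Cyba differed by more than that sum in control and dbdb, and by less in dbR, at 377.4 ± 30.5 and 340.9 ± 9.61 FPKM (SD, n = 3).

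**Figure D1:**
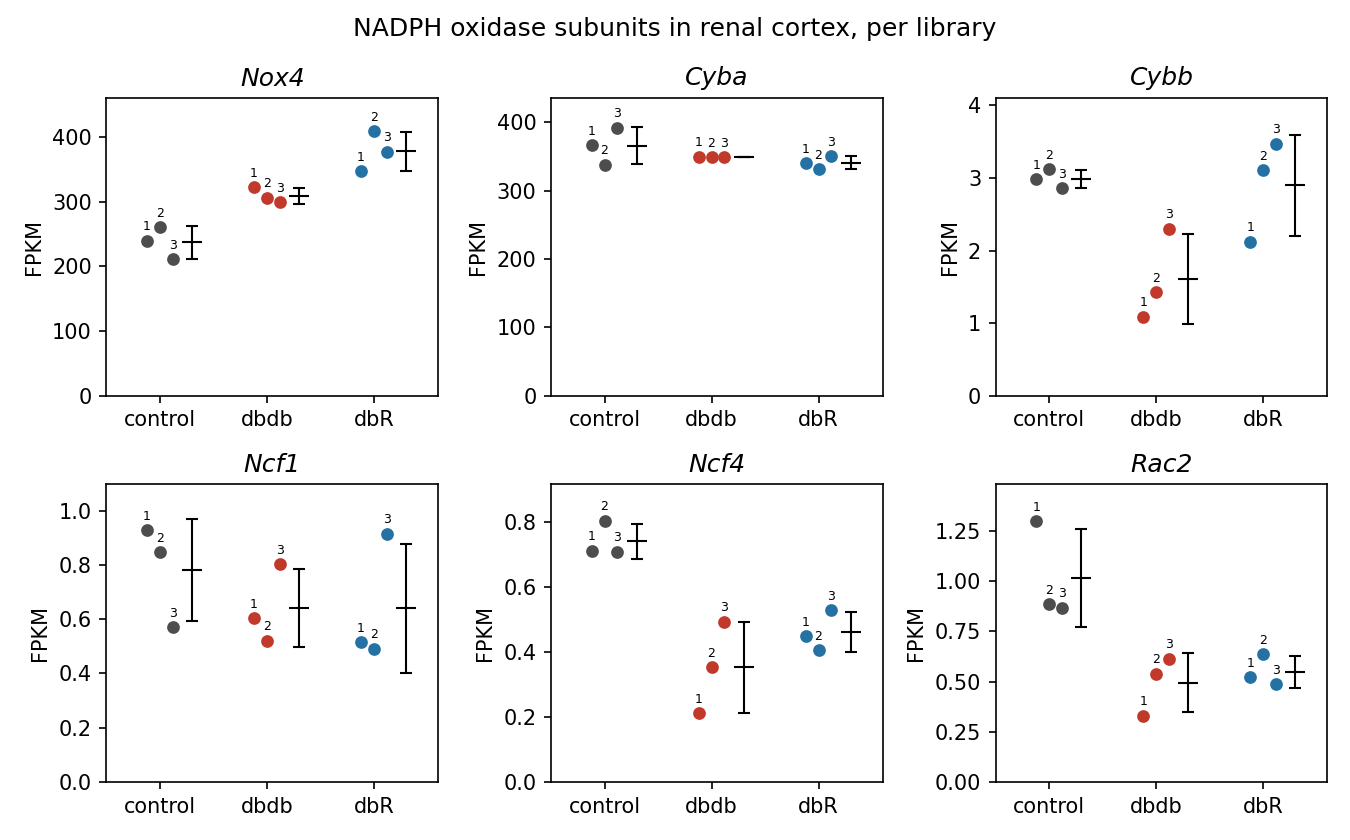
FPKM (vertical axis, linear, from 0) of each NADPH oxidase subunit in control, dbdb and dbR; points are libraries numbered by replicate, and the bar is the mean with its SD (n = 3). Nox4 lies at 210.6 to 260.0 FPKM in control and 347.3 to 408.3 in dbR, while Cybb is at 1.09 and 1.43 FPKM in dbdb 1 and dbdb 2 and at 2.86 to 3.12 in control.

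A gene was called when its Benjamini-Hochberg adjusted p from limma, over all 14537 genes, was under 0.05. In dbdb vs. control 4 of the 6 subunits were called. Nox4 was the single member upregulated, beside 13.1% of all genes called higher, and Cybb, Ncf4 and Rac2 were downregulated, beside 13.4% of all genes called lower. In dbR vs. dbdb limma called 0 of the 6 subunits, beside 0.564% of all genes called higher and 0.179% called lower, and 2 of the 6, Nox4 and Cybb, had an unadjusted p under 0.05, as had 17.5% of all genes. In dbR vs. control Nox4 was upregulated, beside 12.3% of all genes called higher, and Rac2 was downregulated, beside 11.8% called lower. Values of every library did not overlap between groups for Nox4 in all 3 comparisons, for Cybb in dbdb vs. control, and for Ncf4 and Rac2 in both diabetic groups against control. Of all genes, 21.2% were higher without overlap between dbdb and control and 21.2% lower, 10.7% and 11.9% between dbR and dbdb, and 20.8% and 21.1% between dbR and control.

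Nox4 is the catalytic subunit of the oxidase found in tubule cells. Nox4 (ENSMUSG00000030562, chr7:87246096-87398710, plus strand, GRCm38) was at 239.6, 260.0 and 210.6 FPKM in control 1, 2 and 3, at 322.4, 305.7 and 298.7 in dbdb 1, 2 and 3, and at 347.3, 408.3 and 376.7 in dbR 1, 2 and 3. Every dbdb library was above every control library, and every dbR library was above every dbdb library. The means were 236.7 ± 24.8, 308.9 ± 12.2 and 377.4 ± 30.5 FPKM (SD, n = 3). Nox4 rose 1.31-fold in dbdb vs. control, a log2 fold change on the log2(FPKM + 0.1) scale of 0.39 (SE 0.09, 95% interval 0.19 to 0.59), with an adjusted p of 0.0105 from limma. In dbR vs. control it rose 1.6-fold, by 0.68 on the log2 scale (95% interval 0.48 to 0.87), with an adjusted p of 0.000643 from limma. Both calls held in each of 21 alternatives, with log2 fold changes of 0.31 to 0.55 and 0.59 to 0.77. For dbR vs. dbdb the log2 fold change was 0.29 (95% interval 0.09 to 0.48), higher in 3 of 3 dbR libraries than in any dbdb library, and the difference failed the correction over all genes, with an unadjusted p of 0.00928 and an adjusted p of 0.147 from limma. Over the 21 alternatives that adjusted p lay between 0.107 and 0.402.

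Nearly all of the Nox4 signal came from a single transcript, ENSMUST00000032781, with 18 exons and 3753 bases after splicing, at a mean of 305.3 FPKM. The transcript ENSMUST00000124057, of 592 bases, averaged 1.99 FPKM, and ENSMUST00000068829, of 1861 bases, averaged 0.440 FPKM. The short ENSMUST00000124057 was at 1.65, 1.38 and 1.02 FPKM in control 1, 2 and 3, at 0.941, 1.85 and 1.11 in dbdb 1, 2 and 3, and at 4.61, 2.09 and 3.24 in dbR 1, 2 and 3. All 3 dbR libraries were above all others for this transcript, which rested on about 14 to 84 fragments per library. No test of it apart from its gene is reported here.

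Cybb, also known as gp91phox or Nox2, is the catalytic subunit of the phagocyte oxidase. Cybb (ENSMUSG00000015340, chrX:9435252-9487771, minus strand) was at 2.98, 3.12 and 2.86 FPKM in control 1, 2 and 3, at 1.09, 1.43 and 2.30 in dbdb 1, 2 and 3, and at 2.12, 3.11 and 3.47 in dbR 1, 2 and 3. All dbdb libraries were below all control libraries, dbdb 3 was the highest of its group, and dbR 1 fell within the dbdb values while dbR 2 and dbR 3 did not. Between dbdb and control Cybb had a log2 fold change of -0.91 (SE 0.25, 95% interval -1.46 to -0.37), 1.88-fold lower on the log2(FPKM + 0.1) scale, with an adjusted p of 0.0214 from limma. The call was made in all 12 other settings and in 5 of 9 fits that each left out a library. It was lost without control 1 (adjusted p 0.0531), control 2 (0.0606), dbdb 1 (0.0631) or dbdb 2 (0.0660), in a range over its alternatives from 0.00348 to 0.0660 in limma. Without dbdb 3 the log2 fold change was -1.19 and the adjusted p from limma 0.00348.

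In dbR vs. dbdb the log2 fold change of Cybb was 0.85 (SE 0.25, 95% interval 0.30 to 1.39), with an unadjusted p of 0.00627 and an adjusted p of 0.125 from limma, so it was not called. Without dbdb 3 it was 1.12 and was called, with an adjusted p of 0.0399 from limma. That call rests on leaving out the dbdb library with the highest Cybb. Over all alternatives the limma adjusted p ran from 0.0399 to 0.473. In dbR vs. control Cybb had a log2 fold change of -0.07 (95% interval -0.61 to 0.48), with an adjusted p of 0.872 from limma, and its sign turned with equal sums without mitochondrial genes (0.02) and without dbR 1 (0.13).

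The transcripts of Cybb differed between the dbR libraries. The main transcript, ENSMUST00000015484, with 13 exons and 4752 spliced bases at chrX:9435252-9469324, was at 2.98, 3.12 and 2.85 FPKM in control 1, 2 and 3, at 1.09, 1.43 and 2.30 in dbdb 1, 2 and 3, and at 2.12, 2.57 and 2.20 in dbR 1, 2 and 3. A short transcript of 390 bases and 5 exons at chrX:9457018-9487771, ENSMUST00000170885, was at 0.546 FPKM in dbR 2 and 1.27 FPKM in dbR 3 and at 0.00642 FPKM or less in the other libraries. That share of the dbR level rested on about 6 fragments in dbR 2 and 12 in dbR 3. With the main transcript alone, all dbR libraries were below all control libraries, and dbR 1 and dbR 3 were below dbdb 3. Fitted per transcript, the main transcript had log2 fold changes of -0.91 in dbdb vs. control (adjusted p 0.0472), 0.54 in dbR vs. dbdb (0.473) and -0.37 in dbR vs. control (0.416), all from limma.

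**Figure D2:**
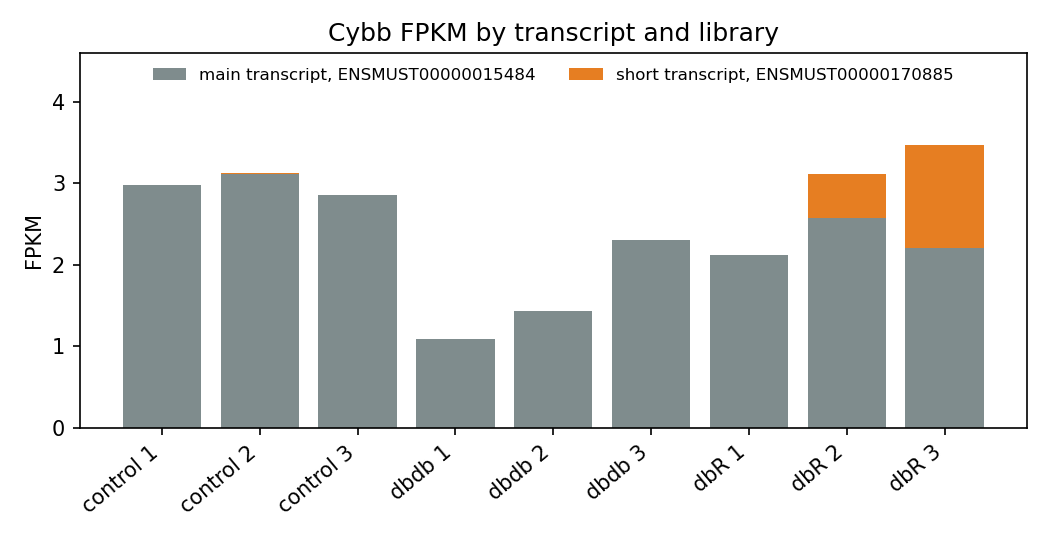
FPKM of Cybb (vertical axis, linear, from 0) in each library, stacked by transcript: the main transcript and a short transcript of 390 bases. The short transcript adds 0.546 FPKM in dbR 2 and 1.27 FPKM in dbR 3, and without it these libraries are at 2.57 and 2.20 FPKM.

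The level of Nox4 relative to Cybb was higher in every diabetic library than in any control library. Nox4 FPKM divided by Cybb FPKM was 80.4, 83.3 and 73.8 in control 1, 2 and 3, then 295.0, 214.0 and 130.0 in dbdb 1, 2 and 3, and 164.0, 131.0 and 109.0 in dbR 1, 2 and 3. The dbdb and dbR ranges of this ratio overlapped. The ratio restates the levels given above and is no separate result. Mean Cybb summed over transcripts was 2.90 FPKM in dbR and 2.99 in control, so the dbR ratio mainly followed Nox4. In dbR 2 and dbR 3 the short Cybb transcript is part of the sum and lowers the ratio.

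Cyba, or p22phox, is the membrane partner that both catalytic subunits need for stability. Cyba (ENSMUSG00000006519, chr8:122424776-122432930, minus strand) was at 366.8, 337.8 and 392.4 FPKM in control 1, 2 and 3, at 349.8, 348.8 and 349.4 in dbdb 1, 2 and 3, and at 340.4, 331.6 and 350.8 in dbR 1, 2 and 3. The groups overlapped in every comparison. The log2 fold change was -0.06 in dbdb vs. control (95% interval -0.21 to 0.09, limma adjusted p 0.524), and it became positive under 2 alternatives, quantile normalization (0.02) and equal sums without the mitochondrial genes (0.10). It was -0.04 in dbR vs. dbdb (adjusted p 0.827) and -0.10 in dbR vs. control (95% interval -0.25 to 0.05, adjusted p 0.318), by limma. Cyba lies within the read-through gene Gm20388, annotated on the opposite strand over all 8155 bases of Cyba. Whether the counting used strand is not given in the sources used here, so its level carries that uncertainty.

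Ncf1, or p47phox, is the cytosolic organizer that brings the other cytosolic subunits to the membrane. Ncf1 (ENSMUSG00000015950, chr5:134220053-134229625, minus strand) was at 0.928, 0.848 and 0.571 FPKM in control 1, 2 and 3, at 0.603, 0.521 and 0.802 in dbdb 1, 2 and 3, and at 0.515, 0.492 and 0.915 in dbR 1, 2 and 3. The groups overlapped in every comparison, with control 3 low in its group and dbdb 3 and dbR 3 high in theirs. No comparison called it: the log2 fold changes were -0.24 in dbdb vs. control (95% interval -0.82 to 0.33), -0.03 in dbR vs. dbdb and -0.27 in dbR vs. control (95% interval -0.85 to 0.30), with limma adjusted p of 0.527, 0.970 and 0.483. Without dbdb 3 the first 2 were -0.39 and 0.12. The sign in dbR vs. dbdb also turned without dbR 1 (0.08), without dbR 2 (0.11) and with transcripts fitted apart (0.11). The value in dbdb vs. control was -0.12 without control 1 or dbdb 2. In dbR vs. control it was -0.52 without dbR 3, -0.14 without dbR 2 and -0.07 with transcripts fitted apart. Over all alternatives these 2 values ran from -0.43 to -0.11 and from -0.52 to -0.07. Ncf1 shares 4303 bases with Gtf2ird2 on the opposite strand and is uncertain for the same reason as Cyba.

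Ncf4, or p40phox, is a cytosolic subunit that binds membrane phosphoinositides and helps activate the phagocyte enzyme. Ncf4 (ENSMUSG00000071715, chr15:78244801-78262580, plus strand) was at 0.710, 0.802 and 0.707 FPKM in control 1, 2 and 3, at 0.212, 0.353 and 0.492 in dbdb 1, 2 and 3, and at 0.448, 0.405 and 0.528 in dbR 1, 2 and 3. Summed over its transcripts, all 6 diabetic libraries were below all control libraries, and dbdb and dbR overlapped. That separation did not hold for the main transcript alone, ENSMUST00000096357, which was at 0.467 FPKM in control 3 and 0.528 in dbR 3. A second transcript of 792 bases, ENSMUST00000133618, held 0.241 FPKM of control 3 and 0.328 FPKM of dbdb 3, on about 5 and 7 fragments, and 0.000346 FPKM or less in the other libraries. On the main transcript dbdb 3, at 0.164 FPKM, was the lowest rather than the highest of its group. Fitted per transcript, the main transcript had log2 fold changes of -1.16 for dbdb and -0.42 for dbR against control and 0.74 between dbR and dbdb (limma adjusted p 0.0617, 0.510 and 0.478). Ncf4 had a log2 fold change of -0.94 in dbdb vs. control (SE 0.23, 95% interval -1.46 to -0.42), 1.92-fold lower, with an adjusted p of 0.0158 from limma. With a pseudocount of 1 in place of 0.1 it was -0.37, and over its alternatives it ran from -1.16 to -0.37. The call was lost without control 2 (-0.89, adjusted p 0.0513) and when transcripts were fitted apart (0.0617), within a range of limma adjusted p from 0.00688 to 0.0617. Without dbdb 3 the log2 fold change was -1.16 with an adjusted p of 0.00688 from limma. Between dbR and dbdb it was 0.35 (95% interval -0.17 to 0.88, limma adjusted p 0.474). This value was 0.57 without dbdb 3, 0.11 without dbdb 1 and 0.12 with a pseudocount of 1.

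In dbR vs. control Ncf4 had a log2 fold change of -0.59 (95% interval -1.11 to -0.06) and missed the threshold, with an adjusted p of 0.0978 from limma. It passed with a pseudocount of 1 (adjusted p 0.0492), after quantile normalization (0.0450), with the 6 libraries of that comparison fitted alone (0.0409) and without dbdb 1 (0.0451). Over its alternatives the limma adjusted p ran from 0.0409 to 0.510, and the log2 fold change from -0.72 to -0.25, the latter with the pseudocount of 1.

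Rac2 is the GTPase, found mainly in blood cells, that switches the phagocyte oxidase on. Rac2 (ENSMUSG00000033220, chr15:78559167-78572783, minus strand) was at 1.30, 0.885 and 0.869 FPKM in control 1, 2 and 3, at 0.329, 0.539 and 0.615 in dbdb 1, 2 and 3, and at 0.522, 0.637 and 0.487 in dbR 1, 2 and 3. Control 1 was the highest of all libraries, and all 6 diabetic libraries were below all control libraries. Between dbdb and control the log2 fold change of Rac2 was -0.92 (SE 0.23, 95% interval -1.44 to -0.40), 1.89-fold lower, with an adjusted p of 0.0164 from limma. That call was lost without control 1 (-0.75, adjusted p 0.0576) and with transcripts fitted apart (adjusted p 0.0873), in a range of limma adjusted p from 0.00915 to 0.0873. Rac2 has 1 transcript, with the same FPKM as the gene. In that last fit only the variance trend and the correction, both taken over transcripts, differed. Without dbdb 3 the log2 fold change was -1.07 (limma adjusted p 0.0150). With a pseudocount of 1 the log2 fold change was -0.43, in a range over its alternatives from -1.07 to -0.43. Between dbR and dbdb it was 0.15 (95% interval -0.37 to 0.67), with an adjusted p of 0.781 from limma, and it was 0.30 without dbdb 3 and -0.07 without dbdb 1.

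Rac2 was downregulated in dbR vs. control, with a log2 fold change of -0.77 (95% interval -1.29 to -0.25), 1.71-fold lower, and an adjusted p of 0.0371 from limma. With a pseudocount of 1 it was -0.38, in a range from -0.90 to -0.38. This call was the least stable of the 6 made: limma gave it in 7 of 11 other settings and in 3 of 9 fits that each left out a library, over a range of adjusted p from 0.0134 to 0.155. It was lost without control 1 (0.12), control 2 (0.0577), control 3 (0.0552), dbR 1 (0.0960), dbR 2 (0.0539) or dbR 3 (0.103). It was also lost without the filter on low values (0.0517), with equal sums after leaving out mitochondrial genes (0.0713), with the replicate number as a block (0.0707) and with transcripts fitted apart (0.155). In the last of these the Rac2 values were again those of its gene.

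**Figure D3:**
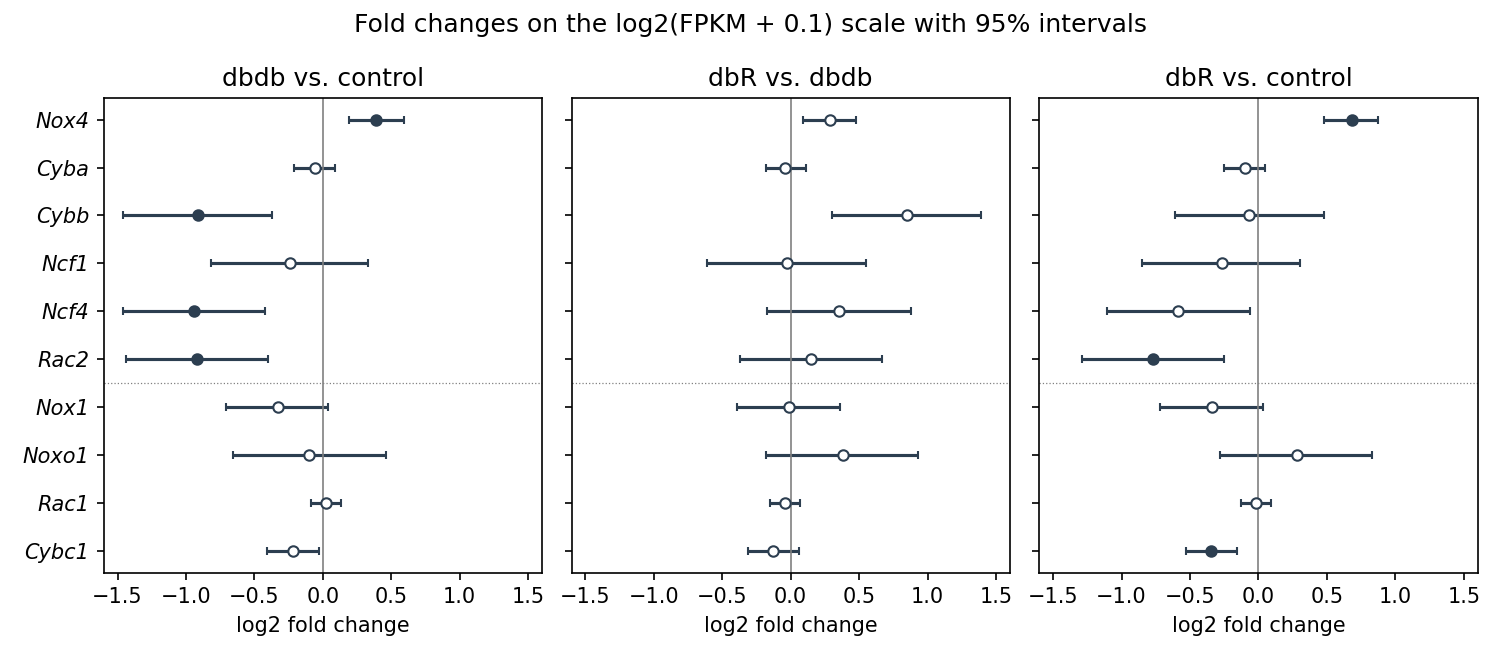
Log2 fold changes (horizontal axis, log2(FPKM + 0.1) scale) with 95% intervals for the 6 subunits above the dotted line and 4 other oxidase subunits below it, in each comparison; filled points were called at an adjusted p under 0.05 by limma. In dbdb vs. control Nox4 is at 0.39 and Cybb, Ncf4 and Rac2 are at -0.91, -0.94 and -0.92.

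Over the 6 subunits the median log2 fold change was -0.58 for dbdb against control, 0.22 for dbR against dbdb and -0.19 for dbR against control, beside 0 for all genes in each comparison. The median between dbR and dbdb was 0.04 without dbdb 1 and 0.13 after quantile normalization. For dbR against control it was -0.12 without control 1, -0.37 without dbR 3, -0.30 after quantile normalization and -0.10 without mitochondrial genes. For dbdb vs. control 1 of the 6 log2 fold changes was positive and 5 were negative, for dbR vs. dbdb 4 were positive and 2 negative, and in dbR vs. control 1 was positive and 5 were negative. When mitochondrial genes, 26.9% to 32.8% of the summed FPKM, were left out and the libraries brought to equal sums, the median of all genes moved to 0.149 in dbdb vs. control. The median of the 6 subunits was then -0.43, with the same counts of 1 called higher and 3 called lower. Under that scaling 78.3% of all genes called in dbdb vs. control were higher, against 49.5% as deposited. In dbR vs. control the share was 70.5% under that scaling and 62.3% under scaling to the 75th percentile, against 51.1% as deposited. Between dbR and dbdb it was 48.6% without mitochondrial genes, against 75.9% as deposited.

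Correlations between subunits across the 9 libraries are given as a description, over libraries that include the group differences. Pearson's r of log2(FPKM + 0.1) was 0.86 for Ncf4 and Rac2, 0.82 for Cybb and Ncf4, 0.64 for Cybb and Rac2, 0.53 for Ncf1 and Ncf4, 0.46 for Cybb and Ncf1 and 0.41 for Ncf1 and Rac2 (n = 9 libraries). Nox4 had r of -0.77 with Cyba, -0.67 with Rac2, -0.59 with Ncf4 and -0.10 with Cybb. The genes most like each subunit were taken from 11614 genes with a mean of at least 1 FPKM, by r over the 9 libraries. For Nox4 they were Eng (0.975), Prickle1 (0.974) and Slc22a29 (0.973). For Cybb they were Fhl3 (0.960), the leukocyte integrin gene Itgb2 (0.942) and Pip4k2a (0.942). For Cyba they were Dmpk (0.941), Papd4 (0.937) and Tmem167b (0.931). For Ncf1 they were Celf2 (0.948), 1810030O07Rik (0.918) and Ero1lb (0.905). For Ncf4 they were the macrophage gene Mpeg1 (0.988), Lasp1 (0.966) and Ifi203 (0.959). For Rac2 they were Ano1 (0.974), Crlf3 (0.965) and Il13ra1 (0.957). After the group means were taken out, r was 0.96 for Ncf4 with Mpeg1, 0.91 for Cybb with Fhl3 and 0.80 for Nox4 with Eng.

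Markers of myeloid cells were set beside the phagocyte subunits. Of 21 macrophage and myeloid markers tested, 13 were downregulated and 0 upregulated in dbdb vs. control, beside 13.4% of all genes called lower, with a median log2 fold change of -0.88. Without dbdb 3, which was picked by the sum of these same markers, the count was 19 with a median of -1.06. The count was 8 without control 1, 9 without control 2 or dbdb 2, and 10 without dbdb 1. The other 8 were not called, with Cd14 at -0.01. The most abundant of them, the complement gene C1qa, averaged 12.7 FPKM, and the called genes with the largest changes were Aif1 at -1.6, the integrin gene Itgb2 at -1.44 and the leukocyte phosphatase gene Ptprc at -1.39, with limma adjusted p of 0.0332, 0.00447 and 0.000527. The Aif1 call was lost without control 1 (0.0942), control 2 (0.0553), control 3 (0.0756), dbdb 1 (0.0617) or dbdb 2 (0.0798), in a limma range of 0.00204 to 0.0942. In dbR vs. dbdb all 21 log2 fold changes were positive with a median of 0.46, and limma called 0 of them. An unadjusted p under 0.05 was found for 10 of the 21, beside 17.5% of all genes. Without dbdb 3 limma called 2 of the 21, with a median of 0.62, and the median was 0.28 without dbdb 1 and 0.36 without dbR 3. In dbR vs. control 3 of the 21 were downregulated, near the 11.8% of all genes called lower, and the median was -0.33. The count was 6 without dbdb 1 or dbdb 3, 5 after quantile normalization and 2 without control 1, dbR 1 or dbR 2. Of those called, Lyz2 at -0.59 lost its call without control 1 (0.057), dbR 1 (0.0806) or dbR 2 (0.0523), in a limma range of adjusted p from 0.0183 to 0.0806. The sum of Cybb, Ncf1, Ncf4 and Rac2 was 5.91, 5.66 and 5.0 FPKM in control 1, 2 and 3, then 2.24, 2.84 and 4.21 in dbdb 1, 2 and 3, and 3.61, 4.65 and 5.40 in dbR 1, 2 and 3. Like the sum of the myeloid markers, it was highest within dbdb in dbdb 3 and lowest within dbR in dbR 1. Relative to the macrophage receptor gene Csf1r, Cybb FPKM was 0.259, 0.329 and 0.211 in control 1, 2 and 3, then 0.302, 0.3 and 0.481 in dbdb 1, 2 and 3, and 0.375, 0.613 and 0.581 in dbR 1, 2 and 3. This ratio was higher in each dbR library than in any control library, while control and dbdb overlapped. Csf1r itself averaged 11.5 FPKM in control, 4.39 in dbdb and 5.57 in dbR. Ratios to the other myeloid markers were not taken, so this separation is stated for Csf1r only. The part of the myeloid markers in the result for the phagocyte subunits was not tested.

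**Figure D4:**
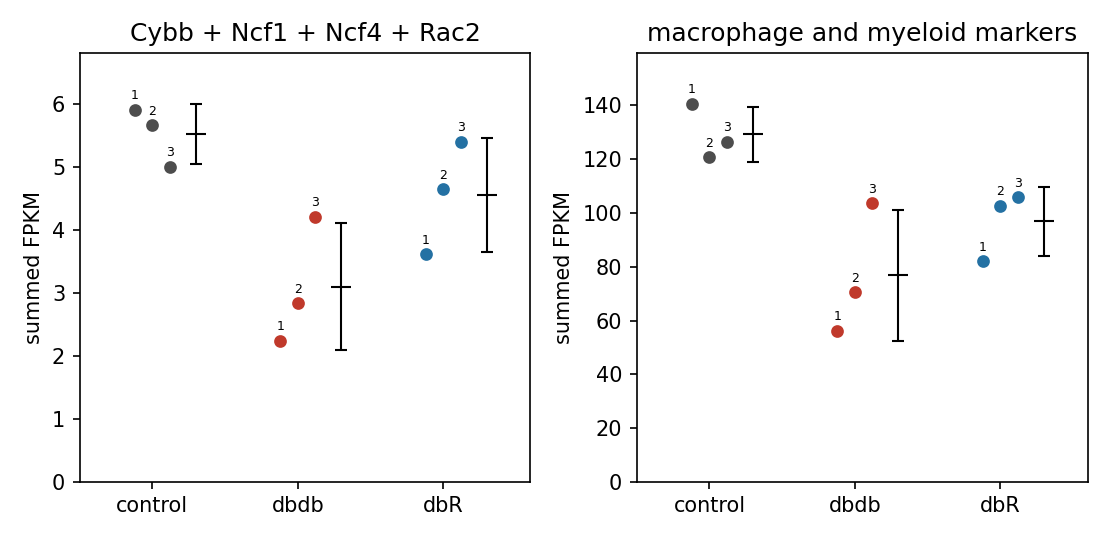
Summed FPKM per library (vertical axes, linear, from 0) of Cybb, Ncf1, Ncf4 and Rac2 (left) and of 23 macrophage and myeloid marker genes (right), with the mean and SD of each group (n = 3). In both panels dbdb 3, at 4.21 and 103.6 FPKM, is above dbdb 1 and dbdb 2.

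Markers of other blood cells that carry the phagocyte oxidase or Rac2 were also set beside the subunits. Their counts stand beside 13.1% of all genes called higher and 13.4% called lower in dbdb vs. control. In dbR vs. control these shares were 12.3% and 11.8%. Of 10 neutrophil markers 4 were tested, with 2 positive and 2 negative log2 fold changes and a median of 0.08 in dbdb vs. control. That median was 0.47, 0.01 and 0.10 without control 1, 2 and 3, and 0.21, 0.38 and -0.04 without dbdb 1, 2 and 3, and 0.02 after quantile normalization and 0.21 without mitochondrial genes. S100a8 was upregulated there (1.0, limma adjusted p 0.0259), whereas S100a9 at 0.65, Csf3r at -0.49 and Retnlg at -0.57 were not called. The S100a8 call was lost without control 2 (0.0660), control 3 (0.0752), dbdb 1 (0.0827) or dbdb 3 (0.0728), in a limma range of 0.00556 to 0.0827. Leaving out each library in turn moved Retnlg over a range of -1.49 to 0.17, so its sign turned. For dbR against control the median was 0.68 (0.20 without control 2 and 0.34 without dbR 3) and 1 of the 4, S100a8, was upregulated at 1.08 (limma adjusted p 0.02), a call lost without control 2 (0.0546), control 3 (0.0616) or dbR 3 (0.0677), in a limma range of 0.00686 to 0.0677. That count was 2 with scaling to the 75th percentile, without mitochondrial genes, with the replicate block and without dbdb 2. In dbdb vs. control it was 2 without mitochondrial genes, with the block and without dbdb 2. The most abundant, S100a9, averaged 3.18 FPKM. Of the genes below the filter, Ly6g, Mpo, Elane and Camp were listed at 0 in every control library and in most of the others. Ngp and Cxcr2, also below the filter, were not: in control 1, 2 and 3 Ngp was at 0.0355, 0.074 and 0.103 FPKM. Cxcr2 was at 0.0175, 0.0184 and 0.0361 FPKM there. The neutrophil sum was 4.67, 2.88 and 3.87 FPKM in control 1, 2 and 3, then 6.95, 4.07 and 7.12 in dbdb 1, 2 and 3, and 5.51, 6.07 and 8.98 in dbR 1, 2 and 3. The part of neutrophils in the Cybb result was not tested. Of 8 lymphocyte markers tested, 2 were downregulated in dbdb vs. control, Cd79a at -1.82 and Cd4 at -1.14 (limma adjusted p 0.00956 and 0.00728), with a median of -1.07 (-0.70 without control 1), and 2 in dbR vs. control, Cd2 at -1.61 and Cd4 at -0.86. The second Cd4 call was lost with the replicate block (limma adjusted p 0.0521) and without control 1 (0.0898), control 2 (0.0639), dbR 2 (0.0633) or dbR 3 (0.0842), in a range of 0.0175 to 0.0898. The most abundant, Nkg7, averaged 0.362 FPKM. The lymphocyte sum was 4.90, 3.41 and 2.51 FPKM in control 1, 2 and 3, then 0.985, 1.29 and 1.77 in dbdb 1, 2 and 3, and 1.21, 2.21 and 1.29 in dbR 1, 2 and 3. Control 1 was highest both in this sum and in Rac2, and the part of lymphocytes in the Rac2 result was not tested.

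Markers of the cells that make up the cortex were set beside Nox4. For these and the lists that follow, 13.1% of all genes were called higher and 13.4% lower in dbdb vs. control. The shares were 0.564% and 0.179% in dbR vs. dbdb, and 12.3% and 11.8% in dbR vs. control. Of 10 proximal tubule markers 3 were upregulated and 1 was downregulated in dbdb vs. control, with a median of 0.22. The count of higher genes was 1 without control 2 or without dbdb 2, and 5, with a median of 0.38, with equal sums after leaving out mitochondrial genes. The glucose transporter gene Slc5a2 lost its call in 4 alternatives and the gluconeogenic gene Fbp1 in 5, with limma adjusted p of up to 0.0847 and 0.105. Their sum was 6096.1, 6031.3 and 5514.2 FPKM in control 1, 2 and 3, then 6483.2, 7096.6 and 5764.4 in dbdb 1, 2 and 3, and 6615.2, 6381.9 and 6438.3 in dbR 1, 2 and 3. Among the called genes of that list, the organic anion transporter gene Slc22a6 had -0.58 for dbdb and -0.68 for dbR against control, and the lactate transporter gene Slc5a12 had 0.55 and 0.67. Of 8 distal and collecting duct markers 5 were upregulated in dbdb vs. control, 1 in dbR vs. dbdb and 6 in dbR vs. control, led by the calcium-binding protein gene Calb1 at 2.12 in dbdb vs. control (limma adjusted p 1.36e-05). The call in dbR vs. dbdb was Atp6v1g3, a subunit of the proton pump of intercalated cells, at 0.52 (limma adjusted p 0.0251). It was lost without mitochondrial genes (0.0504), with the replicate block (0.0594) and without dbdb 1 (0.0561), dbdb 2 (0.0715), dbR 2 (0.12) or dbR 3 (0.0604), in a limma range of 0.0192 to 0.12. The medians of the distal list were 0.50 for dbdb and 0.87 for dbR against control. The calls of Slc12a1 and Aqp2 for dbR against control were lost in 4 and 2 of 13 alternatives, with limma adjusted p of up to 0.105 and 0.0592. The distal sum was 725.6, 617.2 and 653.7 FPKM in control 1, 2 and 3, then 953.6, 897.7 and 1205.3 in dbdb 1, 2 and 3, and 995.7, 1025.2 and 951.3 in dbR 1, 2 and 3. The part of any tubule cell type in the Nox4 result was not tested.

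Of 6 podocyte markers 3 were upregulated in dbdb and 2 in dbR against control, the first count being 5 without dbdb 1 or without mitochondrial genes, with the most abundant, Podxl, at a mean of 43.3 FPKM. The podocyte sum was 89.7, 78.2 and 78.4 FPKM in control 1, 2 and 3, then 95.9, 99.2 and 100.4 in dbdb 1, 2 and 3, and 93.1, 101.5 and 85.8 in dbR 1, 2 and 3. Of 6 endothelial markers 4 were downregulated in dbdb vs. control, with a median of -0.33, and the counts became 2 lower and 1 higher, with a median of -0.17, with equal sums after leaving out mitochondrial genes and 2 lower without control 2. Of these, Cdh5 at -0.32 (limma adjusted p 0.0416) lost its call in 8 of 13 alternatives, over a limma range of 0.0299 to 0.264. For dbR against control 2 were upregulated, Flt1 at 0.33 and Ehd3 at 0.22 (limma adjusted p 0.0252 and 0.0388), and they lost the call in 5 and 7 of 13 alternatives, with limma adjusted p of up to 0.0829 and 0.11. From the same list Emcn at 0.66 and Kdr at 0.52 were upregulated in dbR vs. dbdb (limma adjusted p 0.0205 and 0.0309). Emcn was not called there without dbdb 2 (0.0516), dbR 2 (0.0688) or dbR 3 (0.0604), in a limma range of 0.0123 to 0.0688. Kdr was not called without dbdb 1 (0.0681), dbR 1 (0.0601), dbR 2 (0.151) or dbR 3 (0.0797), nor without mitochondrial genes (0.0528), in a limma range of 0.0209 to 0.151. Emcn, the most abundant, averaged 32.3 FPKM, and the endothelial sum was 113.1, 125.0 and 114.6 FPKM in control 1, 2 and 3, then 94.2, 95.6 and 89.1 in dbdb 1, 2 and 3, and 120.5, 137.5 and 125.5 in dbR 1, 2 and 3. Of 6 mesangial and stromal markers 1, Gata3, was upregulated in dbdb vs. control, 1, Pdgfrb, in dbR vs. dbdb and 3 in dbR vs. control, and Acta2, the most abundant, averaged 7.71 FPKM. The medians were -0.19, 0.68 and 0.53, and 4 of the 6 log2 fold changes for dbdb against control were negative, Col1a1 at -0.80 the lowest. That first median was 0.12 without control 1, -0.09 without dbdb 1, -0.35 without dbdb 3 and -0.04 without mitochondrial genes. After quantile normalization 1 was called higher and 2 lower for dbdb against control, and 2 were higher with scaling to the 75th percentile, without mitochondrial genes or without dbdb 2, and 1 was lower without control 3 or dbdb 3. The Pdgfrb call in dbR vs. dbdb was lost with the replicate block (limma adjusted p 0.0594) and without dbdb 1 (0.0528), dbdb 2 (0.0662), dbR 2 (0.109) or dbR 3 (0.0604), in a range of 0.0139 to 0.109. The mesangial and stromal sum was 41.7, 26.8 and 25.5 FPKM in control 1, 2 and 3, then 26.6, 26.3 and 36.2 in dbdb 1, 2 and 3, and 38.0, 46.3 and 37.7 in dbR 1, 2 and 3.

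Among 10 other subunits of the oxidase family, 4 passed the filter: Nox1, Noxo1, Rac1 and Cybc1. Nox3, Duox1, Duox2, Duoxa1, Duoxa2 and Noxa1 were below a mean of 0.1 FPKM and were not tested. Limma called 1 of the 4, Cybc1, in dbR vs. control, where 11.8% of all genes were called lower, and 0 of the 4 in each of the other comparisons. Unadjusted p was under 0.05 for 1 gene, Cybc1, for dbdb against control, beside 38.8% of all genes. For dbR against dbdb it was under 0.05 for 0 genes, beside 17.5% of all genes. Their median log2 fold changes were -0.16 for dbdb against control, -0.03 for dbR against dbdb and -0.18 for dbR against control. Without mitochondrial genes these were -0.02, -0.09 and -0.09, the first was -0.10 without control 1, and the second ran from -0.08 without dbdb 1 to 0.03 without dbR 1. Cybc1, listed under the symbol BC017643, is the chaperone that helps assemble the Cybb and Cyba dimer. Cybc1 was at 6.65, 6.35 and 7.12 FPKM in control 1, 2 and 3, at 5.34, 5.85 and 6.04 in dbdb 1, 2 and 3, and at 4.91, 5.6 and 5.27 in dbR 1, 2 and 3. All diabetic libraries were below all control libraries. For dbR vs. control Cybc1 had a log2 fold change of -0.35 with an adjusted p of 0.0155 from limma. That call was lost with equal sums after leaving out mitochondrial genes (0.0688) and without control 3 (0.0586) or dbR 1 (0.0564), in a limma range of 0.00879 to 0.0688. For dbdb vs. control Cybc1 had -0.22 with an adjusted p of 0.0819, which was 0.0398 after quantile normalization, both from limma. After scaling to the 75th percentile the limma adjusted p was 0.115. Without mitochondrial genes the log2 fold change was -0.06 (limma adjusted p 0.615).

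Nox1, the catalytic subunit of an oxidase best known from colon, was at 0.971 to 1.16 FPKM in control, 0.698 to 0.938 in dbdb and 0.655 to 0.932 in dbR, with log2 fold changes of -0.33 and -0.34 against control (limma adjusted p 0.175 and 0.169). Without mitochondrial genes the value for dbdb against control was -0.19 (limma adjusted p 0.436). Rac1, the widely expressed relative of Rac2, was at 63.8 to 69.5 FPKM over the 9 libraries, and Noxo1, the organizer for Nox1, was at 0.270 to 0.578 FPKM. Noxo1, Rac1 and, over 68 bases, Cybc1 overlap genes on the opposite strand and are uncertain in the same way as Cyba and Ncf1. Nox1 overlaps Arl13a over 20528 bases and Cstf2 over 399 bases on the opposite strand, and it shares 13034 bases with Xkrx on the same strand, which the use of strand in counting would not separate.

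Genes that act on the oxidases were taken as a list of 21 regulators, all tested. In dbdb vs. control 3 were upregulated and 5 downregulated, beside 13.1% and 13.4% of all genes, with a median log2 fold change of -0.09. With equal sums after leaving out mitochondrial genes 6 were called higher and 0 lower, with a median of 0.07. The median was -0.03 after quantile normalization and -0.17 without dbdb 1. The count of lower genes was 3 without control 2, dbdb 1, dbdb 2, dbR 1, dbR 2 or dbR 3, and 7 without dbdb 3. Limma called 0 in dbR vs. dbdb, where 4 of the 21 had an unadjusted p under 0.05, near the 17.5% of all genes. In dbR vs. control 2 were upregulated and 3 downregulated, beside 12.3% and 11.8% of all genes. Vav3, an exchange factor for Rac GTPases, had log2 fold changes of 0.55 for dbdb and 0.82 for dbR against control (limma adjusted p 0.00235 and 0.000300). Sh3pxd2a, the scaffold protein Tks5 that can act as an organizer of Nox enzymes, had 0.42 and 0.69 (limma adjusted p 0.0216 and 0.00185). The first Sh3pxd2a call was lost after quantile normalization (0.0511) and without control 3 (0.0759), dbdb 2 (0.0758) or dbdb 3 (0.0607), in a limma range of 0.0125 to 0.0759. Prkcb, a protein kinase C that phosphorylates p47phox, had -0.68 in dbdb vs. control (limma adjusted p 0.0445), and Prex1, a Rac exchange factor of leukocytes, had -0.48 (0.0431). Both were not called after scaling to the 75th percentile (0.0532 for Prkcb and 0.0575 for Prex1), without mitochondrial genes (0.116 and 0.192) or with the replicate block (0.0589 and 0.0754). Leaving out a library ended the Prkcb call in 8 of 9 fits, the exception being dbdb 3, over a limma range of 0.0280 to 0.142. It ended the Prex1 call in 7 of 9 fits, the exceptions being control 3 and dbdb 3, over a limma range of 0.0186 to 0.192.

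The chaperones of the endoplasmic reticulum in that list were lower in both diabetic groups. Hspa5 had log2 fold changes of -0.41 for dbdb and -0.49 for dbR against control (limma adjusted p 0.0114 and 0.00505), and Pdia3 had -0.36 and -0.45 (0.00508 and 0.00156). P4hb, a protein disulfide isomerase and the most abundant regulator at a mean of 191.8 FPKM, had -0.26 and -0.29 (limma adjusted p 0.00627 and 0.00401). With equal sums after leaving out mitochondrial genes the calls in dbdb vs. control were lost, at -0.25 for Hspa5 (limma adjusted p 0.0862), -0.20 for Pdia3 (0.0803) and -0.10 for P4hb (0.153), each the highest adjusted p of its alternatives. After quantile normalization the limma adjusted p was 0.0686 for Hspa5 and 0.0643 for P4hb, and the lowest over the alternatives were 0.00304 for Hspa5, 0.00427 for Pdia3 and 0.00728 for P4hb.

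Of 12 genes for the removal of superoxide and peroxide, the products of the oxidases, 4 were downregulated and 0 upregulated in dbdb vs. control, with a median of -0.17. Of all genes 13.4% were called lower and 13.1% higher there. In dbR vs. control 3 of the 12 were downregulated, beside 11.8% of all genes. Limma called 0 of the 12 for dbR against dbdb, and 1 had an unadjusted p under 0.05, beside 17.5% of all genes. With equal sums after leaving out mitochondrial genes the counts in dbdb vs. control were 2 higher and 2 lower, with a median of -0.01, and 2 were lower without control 1. The median was -0.03 after quantile normalization and -0.10 without control 3. Sod1, the cytosolic superoxide dismutase, had log2 fold changes of -0.67 for dbdb and -0.40 for dbR against control (limma adjusted p 0.000773 and 0.0116), and the peroxiredoxin gene Prdx1 had -0.51 and -0.39 (0.00260 and 0.0106). Sod3, the extracellular superoxide dismutase, had -0.31 and -0.35 (limma adjusted p 0.0174 and 0.00974), and the catalase gene Cat had -0.31 in dbdb vs. control (0.0208). Without mitochondrial genes the limma adjusted p was 0.218 and 0.0569 for Sod3 and 0.124 for Cat, and after quantile normalization the dbdb vs. control values were 0.0909 for Sod3 and 0.0675 for Cat. For dbdb vs. control Sod3 also lost its call without control 1 (0.0523), dbdb 1 (0.0512) or dbdb 3 (0.0515), and Cat without control 1 (0.0547) or control 3 (0.0613), within limma ranges of 0.0195 to 0.218 and 0.0203 to 0.124. The most abundant gene of the list, the plasma glutathione peroxidase gene Gpx3, averaged 13844.8 FPKM in control, 20343.6 in dbdb and 20504.8 in dbR. Its log2 fold change of 0.56 in dbdb vs. control was not called as deposited (limma adjusted p 0.0569) and was called after scaling to the 75th percentile (0.0249), after quantile normalization (1.61e-05) and without mitochondrial genes (0.000177). The log2 fold change was 0.98 after quantile normalization. With the replicate block Gpx3 was not called (limma adjusted p 0.201). Among fits that each left out a library it was called in 1 of 9, with limma adjusted p of up to 0.183.

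RefSeq promoter sequences, 250 bases before to 50 bases after the start of a gene in GRCm38.p6, were matched for 4 of the 6 subunits, Nox4, Cyba, Cybb and Ncf1. The promoters of the catalytic subunits are printed because Nox4 and Cybb moved in opposite directions in dbdb vs. control. Both run 5′ to 3′ on the strand of the gene, Nox4 from chr7:87246399-87246698 on the plus strand and Cybb from chrX:9469275-9469574 on the minus strand. The start used is the first base of ENSMUST00000032781 for Nox4 and of the main transcript for Cybb. Capitals mark matches, on either strand, to 5 motifs, none overlapping another here: GAGGAA for the core bound by PU.1 and related ETS factors, GGGCGG for the GC box, CCAAT for the box of that name, TATAAA for the TATA box, and AGGTCA for the element that nuclear receptors recognize.
Nox4: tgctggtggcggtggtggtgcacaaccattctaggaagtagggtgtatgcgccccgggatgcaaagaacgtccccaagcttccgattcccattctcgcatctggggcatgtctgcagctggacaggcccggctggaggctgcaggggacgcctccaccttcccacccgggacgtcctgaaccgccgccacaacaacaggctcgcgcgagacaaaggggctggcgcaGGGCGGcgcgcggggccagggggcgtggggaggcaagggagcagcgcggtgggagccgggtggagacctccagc
Cybb: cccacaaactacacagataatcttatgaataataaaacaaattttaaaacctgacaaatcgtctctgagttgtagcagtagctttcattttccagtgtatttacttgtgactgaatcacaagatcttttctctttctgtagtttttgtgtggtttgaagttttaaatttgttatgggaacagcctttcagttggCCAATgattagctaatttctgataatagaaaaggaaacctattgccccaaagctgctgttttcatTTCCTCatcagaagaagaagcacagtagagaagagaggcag
The Nox4 promoter was 68.3% G and C and held 1 GGGCGG, whose first base lay at -24 from the start. The Cybb promoter was 35.3% G and C and held 1 CCAAT at -56 and, on the opposite strand, 1 GAGGAA, printed as TTCCTC, at 10. GGGCGG was also found in the promoters of Cyba (2 matches, 60.7% G and C) and Ncf1 (1 match, 54.0% G and C), and neither TATAAA nor the receptor element AGGTCA was found in the 4. Of 32851 promoters of the same length, 28.3% held GAGGAA, 35.7% held GGGCGG, 37.4% held CCAAT, 13.6% held TATAAA and 16.3% held AGGTCA, on either strand. The matches describe these letters in these windows.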

How the data were processed

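RNA of renal cortex from 9 mice, 3 per group, was rRNA-depleted, made into strand-specific libraries and sequenced as paired reads on an Illumina instrument. The authors aligned the reads with TopHat2 2.0.9 to GRCm38.p2 and deposited FPKM per transcript from Cufflinks 2.1.1, as the submitters' processing notes name them; Scripture is named in the paper's methods. Whether counting used strand is not given in the sources used here. The 18 tables of lncRNA were not used here.

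From the deposited mRNA FPKM, values were summed per gene, genes with a mean of at least 0.1 over the 9 libraries were kept, and log2(FPKM + 0.1) was fitted with limma 3.58.1 (R 4.3.3, trend) in a model of 3 groups, with two-sided tests and Benjamini-Hochberg adjustment over 14537 genes. An exact permutation test of 3 against 3 libraries cannot give a p below 0.1 and was not used. Sums, figures and sequence searches used python 3.11.15, numpy 2.4.6, pandas 2.3.3 and matplotlib 3.10.9. The code was tested on simulated data. Depth was estimated from the spacing of the lowest FPKM values, so fragment numbers are approximate, and intervals cover the spread between mice. Coordinates come from the GENCODE annotation of GRCm38 and promoters from RefSeq.

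The members and lists were chosen with earlier results of these data known. An item of the lists is not reported here. Named were all members, the other subunits, up to 6 called genes with the largest change and the most abundant gene of each pathway list, up to 3 called genes and the most abundant of each marker list, and the 3 genes most like each member. Alternatives changed the pseudocount, filter, scaling, libraries fitted, variance model and replicate block, fitted transcripts apart, and left out each library in turn.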

Additional observations from a re-analysis of the deposited data

How the results depend on the processing

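For the 6 calls, each of a subunit in a comparison, the log2 fold change kept its sign under every alternative. Among the members' values under the alternatives, 337 kept their side of the threshold, 18 lost a call, 5 gained a call and 9 that were never called moved or changed sign.

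The count of genes called in dbR vs. dbdb, 108 in the analysis above, was 31 without the filter, 166 with a mean of at least 1 FPKM, 203 with scaling to the 75th percentile, 235 after quantile normalization, 22 with the 6 libraries of the comparison alone, 18 without the trend, 166 with robust variances and 5 with transcripts fitted apart. Leaving out each library in turn gave 2 (without dbR 2) to 141 (without dbdb 3). The cause was not tested. In dbdb vs. control the leave-one-out counts were 2761 to 3830 against 3840, and in dbR vs. control 2479 to 3569 against 3497.

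Of the 4 subunits called in dbdb vs. control, 2 were called with a mean of at least 1 FPKM, where 3 of the 6 were tested, and 2 with transcripts fitted apart; leave-one-out gave 2 to 4. In dbR vs. control 2 subunits were called. The count was 1 without the filter, with a mean of at least 1 FPKM and with transcripts fitted apart. It was also 1 with equal sums after leaving out mitochondrial genes. Leave-one-out gave 1 to 3, with Ncf4 among the 3 called without dbdb 1. In dbR vs. dbdb leave-one-out gave 0 to 1.

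With the replicate number as a block, 3345 genes were called in dbdb vs. control, 23 in dbR vs. dbdb and 3030 in dbR vs. control, among them 4, 0 and 1 subunits. The shared numbers gave no sign of pairing over all genes. Deviations from the group means correlated at -0.17 to 0.06 in the 9 pairs of libraries with the same number, 0 of them above 0.1. In the other 18 pairs they correlated at -0.11 to 0.17. With 3 libraries per group this cannot exclude a weak pairing or one that touches few genes.

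Depth limits Ncf4, at about 8 to 30 fragments per library, most.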
